A study of Homo sapiens with 4 samples.

Results

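Metallothioneins are small cysteine-rich proteins that bind zinc, copper and other metals, and SLC30A1 is the carrier that moves zinc out of the cell across the plasma membrane. Both are textbook targets of MTF1, a zinc-sensing transcription factor that enters the nucleus when free zinc rises and binds short motifs called metal response elements (MRE). Metallothionein genes also answer to other signals, among them oxidative stress and glucocorticoids. Described here are 8 of the 16834 genes of the deposited table, taken by symbol: MT2A, MT1E, MT1X, MT1F, MT1G and MT1M as the metal-binding proteins, MTF1 as their regulator, and SLC30A1 as the exporter.

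RNA-seq was performed on pancreatic ductal adenocarcinoma cells labelled MIA PaCa-2, wild type by their label, in 4 conditions of 12 h. These were a control given neither drug, 1 µM neobractatin (NBT), 5 µM trametinib, and both drugs together. NBT is a compound from the plant Garcinia bracteata, and trametinib is an inhibitor of the kinases MEK1 and MEK2. Each condition had 1 library, so nothing here measures how far cultures of 1 condition differ, and the intervals below cover counting error only. A member passed the limits when its adjusted value over all genes was at most 0.05 in a binomial test of the 2 libraries and its log2 ratio was at least 1 in size. Fewer cells and less RNA per cell cannot be told apart in bulk RNA.

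The 4 libraries held 18776254 to 19614826 estimated reads. All 10 genes of a list of MAPK outputs (DUSP6, DUSP4, SPRY2, SPRY4, ETV4, ETV5, EGR1, FOSL1, PHLDA1 and CCND1) passed the limits downwards with trametinib and with the combination, with median log2 ratios of -3.27 and -3.13, against 0.20 with NBT, where ETV5 passed upwards. Over all genes tested, 2.15% passed downwards with trametinib and 3.69% with the combination, and 1.6% passed upwards with NBT. Some markers went against the cell line named in the labels, whose cell line entries also differ between the 4 libraries. CDKN2A, a tumor suppressor gene known to be homozygously deleted in MIA PaCa-2, had 248.78 to 341.89 TPM (a transcript level scaled to gene length and to a fixed library total), and VIM, a mesenchymal gene that this line is known to express strongly, had 11.48 to 26.39 TPM. MTAP, the gene beside CDKN2A that is lost with it in this line, was looked up after these values were seen and had 13.16 to 19.9 TPM. The epithelial keratins KRT8 and KRT18 ranged from 995.27 to 3799.23 TPM and were lower in both trametinib libraries, EPCAM had 209.12 to 242.36 TPM, CDH1 51.21 to 86.91 TPM and KRT7 2.25 to 5.74 TPM. Of 24 listed markers 16 had values. The 8 for acinar, immune, fibroblast and endothelial cells other than CD68 (91.89 to 139.24 TPM) reached at most 4.23 TPM. The cells are therefore called by their label only, and no other identity is given.

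The promoters are shown first because the MRE is the letter pattern through which MTF1 acts. RefSeq promoter windows, running from 250 bases before to 50 bases after the gene start on GRCh38.p14, were matched for MT2A, MT1X, SLC30A1 and MTF1, and not for MT1E, MT1F, MT1G and MT1M. The core MRE was searched on both strands as TGCACNC or TGCGCNC. Capitals mark these cores in the 250 bases before the start, and a core on the opposite strand appears as its reverse complement.
MT2A promoter, chr16:56608334-56608583, plus strand: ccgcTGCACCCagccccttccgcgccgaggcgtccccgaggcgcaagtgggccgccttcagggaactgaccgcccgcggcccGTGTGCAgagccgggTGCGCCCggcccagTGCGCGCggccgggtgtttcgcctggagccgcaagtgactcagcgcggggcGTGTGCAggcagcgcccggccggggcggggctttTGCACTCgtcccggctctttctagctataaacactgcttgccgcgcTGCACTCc
MT1X promoter, chr16:56682220-56682469, plus strand: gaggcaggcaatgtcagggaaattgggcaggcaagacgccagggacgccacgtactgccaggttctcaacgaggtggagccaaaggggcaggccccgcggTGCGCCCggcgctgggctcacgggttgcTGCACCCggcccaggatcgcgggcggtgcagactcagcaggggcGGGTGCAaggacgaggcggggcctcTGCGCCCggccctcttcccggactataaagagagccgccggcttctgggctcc
SLC30A1 promoter, chr1:211579162-211579411, minus strand: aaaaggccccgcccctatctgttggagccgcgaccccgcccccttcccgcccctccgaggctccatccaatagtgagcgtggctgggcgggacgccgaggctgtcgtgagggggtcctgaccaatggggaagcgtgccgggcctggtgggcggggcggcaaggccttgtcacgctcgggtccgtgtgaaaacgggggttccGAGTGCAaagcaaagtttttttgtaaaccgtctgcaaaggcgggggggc

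The MT2A window held 8 MRE cores, 1 of them after the start at position 31, and 0.0199% of 35116 RefSeq promoters of the same length held as many. MT1X held 4, as many as or more than which were found in 0.601% of promoters. SLC30A1 held 2, at position -49 and, after the start, at position 25, and 8.60% of promoters held 2 or more. The MTF1 window held 0, and at least 1 core was found in 29.6% of all promoters. A core of the antioxidant response element, searched as TGACNNNGC on both strands, occurred once in each of the MT2A, MT1X and SLC30A1 windows and in 13.3% of all promoters. In MT2A it lay at position -104 and overlapped an AP-1 site (TGANTCA), a pattern found in 7.71% of promoters. These matches describe letters in these windows and say nothing of whether a factor was bound.

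The 6 metallothioneins lie in a cluster on chromosome 16, from MT2A (chr16:56608584-56609497) through MT1E (chr16:56625781-56627112), MT1M (chr16:56632659-56633981), MT1F (chr16:56657959-56659303) and MT1G (chr16:56666730-56668065) to MT1X (chr16:56682470-56684196). MTF1 (chr1:37809574-37859592) and SLC30A1 (chr1:211571568-211579161) are on chromosome 1. Each metallothionein has a coding sequence of 186 bases, and any pair shares 88.7% to 95.2% of them, so that a read within the coding part can match several genes. The first 90 coding bases of MT2A and MT1X, from the GENCODE v29 transcripts, show how close the sequences are, with capitals at the 10 bases where MT1X differs.
MT2A coding start: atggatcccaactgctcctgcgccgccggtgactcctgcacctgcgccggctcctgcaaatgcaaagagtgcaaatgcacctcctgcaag
MT1X coding start: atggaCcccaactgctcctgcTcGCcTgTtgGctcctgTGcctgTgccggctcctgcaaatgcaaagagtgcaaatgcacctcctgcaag

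Across the whole GENCODE v29 transcript, 4.88% of the 50-base windows of MT2A occurred exactly in another gene. The share was 5.34% for MT1E, 3.59% for MT1F, 7.05% for MT1M and 20.2% for MT1G. MT1X stood apart with 45.1%, and it was the only metallothionein of the 6 with shared 100-base windows (19.1%, all with AC026461.1). Within the coding part alone, the 50-base shares were 80.3% for MT1X, 44.5% for MT1G and 26.3% for MT2A. They were 21.9% for MT1E, 16.8% for MT1F and 10.9% for MT1M. The deposited counts are on RefSeq transcripts, whose lengths were not compared with these. SLC30A1 had none at either length, and it was also the only member whose estimated reads were whole in every library. Where a read matched several genes the authors' counting program divided it among them, so the MT1X values in particular depend on that division, and the read length was not given in the sources used here.

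MT2A, the main metallothionein of most human cells, was the most abundant transcript of all genes in 3 of the 4 libraries. It had 42517 TPM in the control, 58900 TPM after NBT, 20923 TPM after trametinib, where it ranked 2, and 38017 TPM after both drugs. The NBT library was the highest and the trametinib library the lowest, and the combination lay just under the control. In estimated reads these were 144364, 216752, 72969 and 138477. The log2 ratio to control was 0.54 (95% interval 0.53 to 0.55) under NBT, -0.998 (-1.01 to -0.98) under trametinib and -0.12 (-0.13 to -0.11) under both drugs. None passed the limits, although the trametinib value missed the log2 limit only in the third decimal and passed it under 3 other scalings, at -1.07, -1.06 and -1.02. Against trametinib alone the combination had a log2 ratio of 0.87, and against NBT alone -0.66.

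MT1E, a second abundant isoform, followed a flatter course. It had 9241 TPM in the control, 10572 TPM after NBT, 7516 TPM after trametinib and 12009 TPM after both drugs, ranking between 4 and 7 among all genes. Here the combination library was the highest, whereas for MT2A it was the NBT library. The log2 ratios to control were 0.27 under NBT, -0.27 under trametinib and 0.42 under both drugs, all inside the limits. Its second annotated transcript, NM_001363555.2, took 0.613% to 1.69% of the gene's estimated reads.

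MT1X, which lies at the far end of the cluster, had 1306 TPM in the control, 1093 TPM after NBT, 1554 TPM after trametinib and 2219 TPM after both drugs. It was the only one of the 4 abundant metallothioneins with fewer reads under NBT than in the control, with a log2 ratio of -0.19 (-0.25 to -0.13). The intervals do not cover the division of reads that MT1X shares with other genes. With trametinib present, the ratio for adding NBT was 0.53 (0.48 to 0.58). The ratio of the combination to control was 0.80 (0.75 to 0.86) and that to NBT alone 0.99, just inside the limits, and 1.02 when computed from TPM.

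MT1F had the lowest level of the 4 and the widest differences. It had 189.66 TPM in the control, 309.25 TPM under NBT, 409.62 TPM under trametinib and 831.04 TPM under both drugs, which moved its rank among all genes from 844 to 144. All 3 treated libraries were above the control and the combination was above both single drugs. From 692 estimated reads in the control, MT1F rose to 1534 with trametinib, a log2 ratio of 1.13 (1.00 to 1.27), and to 3252 with the combination, a log2 ratio of 2.17 (2.05 to 2.29) or 4.50-fold. With NBT it had 1231 reads and a log2 ratio of 0.78 (0.65 to 0.92), inside the limits. The combination also passed the limits against trametinib (1.03) and against NBT (1.39).

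MT1G and MT1M, isoforms with little expression here, were near the floor. MT1G had 2, 5, 7 and 8 estimated reads in the control, NBT, trametinib and combination libraries, and MT1M had 4, 11, 5 and 5. With so few reads the 95% intervals of all their ratios included 0, the widest running from -1.34 to 4.66 for MT1G with NBT against control, and no difference was detectable at this depth.

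**Figure D1:**
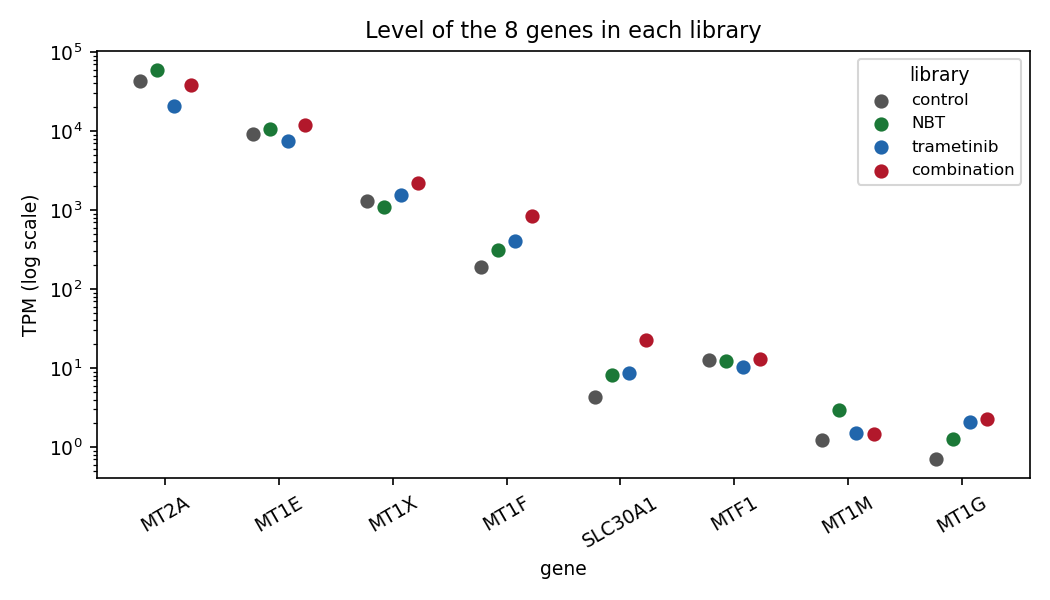
Level of the 8 genes in TPM on a log axis, 1 point per library (control, NBT, trametinib, combination), with no error bars since each condition has 1 library. The genes span from 0.71 TPM (MT1G, control) to 58900 TPM (MT2A, NBT), and the combination point stands highest for MT1E, MT1X, MT1F and SLC30A1, and by less for MTF1 and MT1G.

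The sum over all 12 metallothionein genes of the table does not depend on how reads were divided among these 12. It amounted to 180754 estimated reads for the control, 260913 for NBT, 106071 under trametinib and 193671 under both drugs. As a share of all TPM this was 5.33%, 7.09%, 3.04% and 5.31%. The sum was highest with NBT, lowest with trametinib and about equal in the control and combination libraries, the same order as for MT2A except that the combination lay just above the control. Its log2 ratios to control were 0.48 after NBT, -0.78 after trametinib and 0.04 after both drugs, and the last was -0.0046 when taken from TPM.

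The make-up of the family differed between libraries with and without trametinib. MT2A held 79.8% of the metallothionein TPM in the control and 83.1% under NBT, against 68.8% under trametinib and 71.6% under both drugs. MT1E held 17.4%, 14.9%, 24.7% and 22.6% in the same order. MT1F held 0.356% and 0.436% without trametinib and 1.35% and 1.57% with it. MT2A thus had a smaller part, and MT1E, MT1X and MT1F larger parts, in both libraries that contained trametinib. Without MT2A, the log2 ratio of the family in the combination against NBT turned from -0.44 to 0.31. Unlike the full sum, these parts and the sum without MT2A depend on how reads were divided among the genes.

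**Figure D2:**
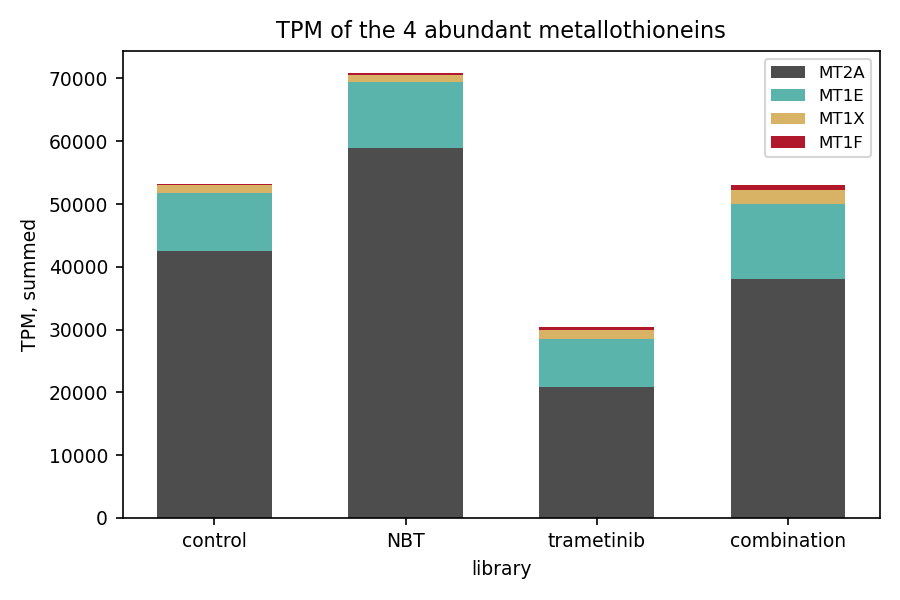
Summed TPM of MT2A, MT1E, MT1X and MT1F in each library, as stacked bars from 0. The stack is tallest with NBT and shortest with trametinib, and the MT2A block follows the same order.

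MTF1, the zinc sensor itself, was expressed at a modest and nearly even level. It had 12.53 TPM in the control, 12.16 TPM after NBT, 10.37 TPM after trametinib and 13.14 TPM after both drugs. The intervals of its log2 ratio to control included 0 with NBT (-0.12 to 0.14) and with the combination (-0.03 to 0.23), and the trametinib ratio was -0.28 (-0.42 to -0.14). The combination stood 0.38 (0.24 to 0.51) above trametinib alone on the log2 scale. No comparison passed the limits.

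The split of MTF1 reads between its RefSeq transcripts was less even than the total. NM_005955.3 was estimated at 263 reads in the control, 626 under NBT, 654 under trametinib and 819 under both drugs, or 27.9%, 63.8%, 83.6% and 77.9% of the gene. XM_011541494.1, a predicted transcript, was estimated at 556, 282, 104 and 223 reads, or 59.2%, 28.8%, 13.3% and 21.2%. A further predicted transcript, XM_011541491.2, went from 113 reads in the control to 0 in the combination. The control was thus the only library in which NM_005955.3 was not the larger estimate. Such estimates depend on the few reads that tell the transcripts apart, and the division was not tested.

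**Figure D3:**
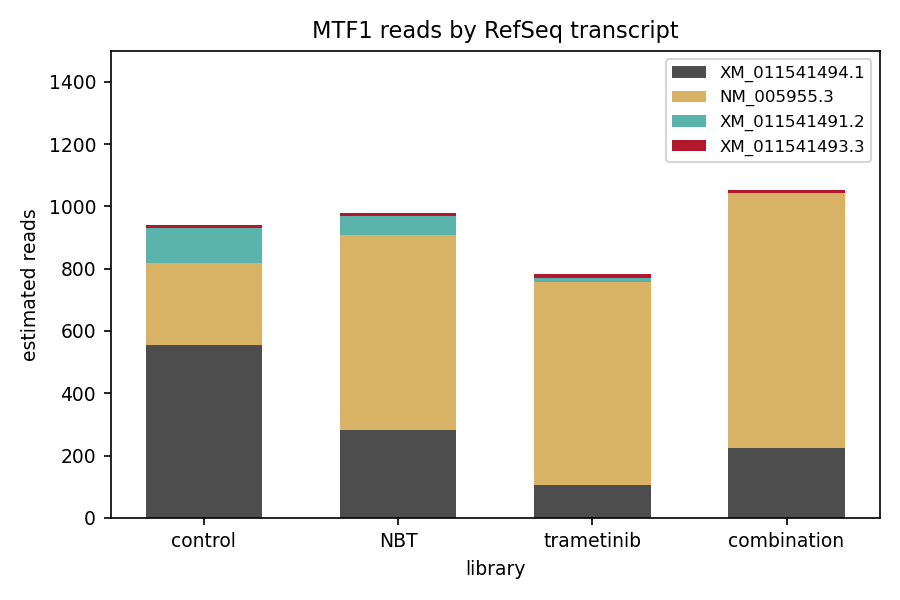
Estimated reads of MTF1 by RefSeq transcript in each library, as stacked bars from 0. The totals stay between 783 and 1052 reads, while the NM_005955.3 block grows from 263 reads in the control to 819 in the combination.

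SLC30A1 had the largest log2 ratio of the 8 genes in the combination. It had 243 estimated reads (4.31 TPM) in the control, 501 (8.20 TPM) after NBT, 504 (8.70 TPM) after trametinib and 1357 (22.44 TPM) after both drugs. The single drugs gave almost the same count, and the combination was far above both. The log2 ratio to control was 0.99 (0.77 to 1.22) with NBT, just inside the limits, and 1.04 (0.82 to 1.27) with trametinib, just past them. With the combination SLC30A1 rose 5.34-fold (4.66 to 6.15), a log2 ratio of 2.42. It also passed the limits against trametinib alone (1.38) and against NBT alone (1.42). The trametinib call did not hold under 3 other scalings, where the ratio was 0.96, 0.97 and 0.997.

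Of the 8 members, 0 passed the limits with NBT against control, where 1.6% of 15888 genes tested passed upwards and 1.01% downwards. With trametinib against control 2 passed, MT1F and SLC30A1, both upwards, where 3.82% of 16197 genes passed upwards and 2.15% downwards. With the combination against control the same 2 genes passed upwards, beside 4.73% of 16229 genes upwards and 3.69% downwards. They also passed upwards in the combination against trametinib, beside 2.56% of genes upwards and 3.55% downwards, and in the combination against NBT, beside 2.38% upwards and 1.99% downwards. These comparisons share libraries and are not separate evidence. The median log2 ratio of the 8 genes was 0.66 for NBT, 0.28 for trametinib and 0.61 for both drugs, against -0.01, 0.08 and 0.05 over all genes tested. Without MT1G and MT1M, which had too few reads to show a difference, the medians of the other 6 were 0.40, 0.0019 and 0.61.

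**Figure D4:**
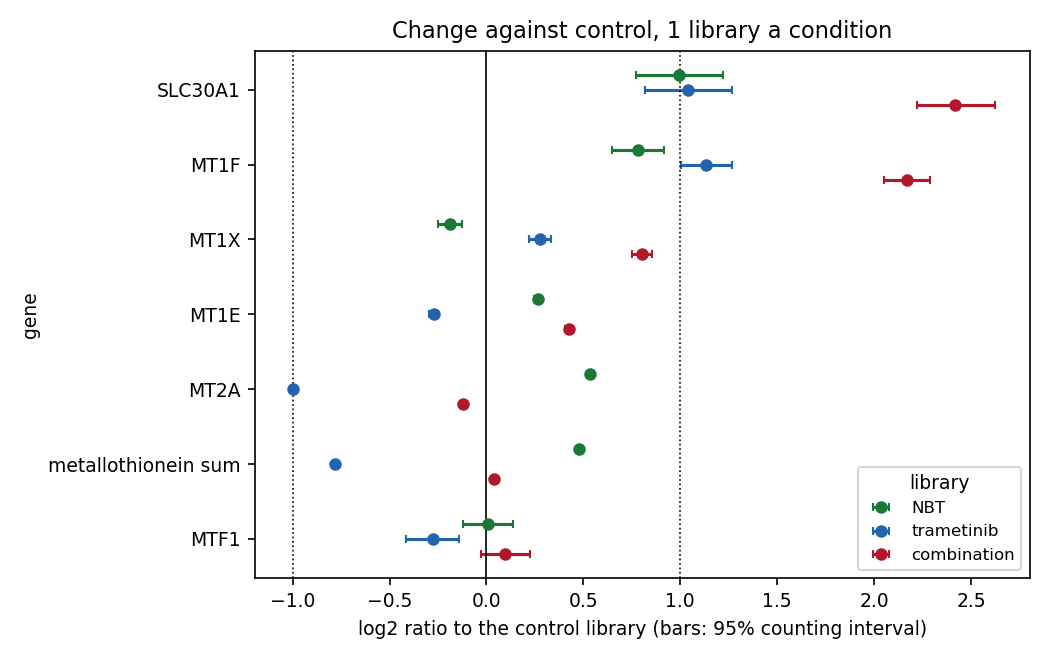
Log2 ratio to the control library with its 95% counting interval for 6 members and the metallothionein sum, 1 color per treated library, with dotted lines at the log2 limits. In the combination SLC30A1 (2.42) and MT1F (2.17) lie beyond the upper line, and MT2A with trametinib lies at the lower one (-0.998).

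The 2 drugs together were compared with the sum of the single log2 ratios. The combination exceeded that sum by 0.34 ± 0.01 (counting SE) for MT2A, 0.43 ± 0.02 for MT1E, 0.72 ± 0.04 for MT1X and 0.25 ± 0.08 for MT1F. The excess was 0.37 ± 0.09 for MTF1 and 0.39 ± 0.14 for SLC30A1. The excess of the metallothionein sum was 0.34. The 6 members with over 100 reads in a library lay above the sum of their single ratios, by less than 1 log2 unit. MT1G and MT1M, on few reads, lay below it, at -0.96 ± 1.32 and -1.35 ± 1.18. All these values share the same 4 libraries, and the share of all genes that lay above their sum was not computed. They therefore do not show whether the members differ from other genes in this. With 1 library per condition there was no test of this interaction. For SLC30A1 and MT1F the single ratios already summed to 2.03 and 1.92.

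Other zinc transporters were mostly inside the limits, as were most of the genes tested. Against control, upward calls made up 1.6% of all genes for NBT, 3.82% for trametinib and 4.73% for both drugs. Downward calls made up 1.01%, 2.15% and 3.69%. Whether the zinc transporters differ from all genes in this was not tested. Of 10 further genes of the exporter family, which mainly load zinc into vesicles, 0 passed with either single drug and 1 rose with the combination, SLC30A3, on only 1, 4, 5 and 10 reads. The median log2 ratio of these 10 was 0.18, -0.05 and 0.28 for NBT, trametinib and both drugs against control. That of the importers was -0.12, -0.16 and 0.03, over 13, 12 and 13 genes with reads. Only 4 of these exporters and 10 of the importers had at least 100 reads in a library of each comparison, so these medians include genes with few reads. SLC30A7, a carrier into the Golgi, had 1075, 1662, 969 and 1814 reads and log2 ratios to control of 0.58, -0.16 and 0.69. Of the importers 1 passed the limits, SLC39A10, a plasma membrane importer whose gene MTF1 is known to repress. SLC39A10 had 431 reads in the control, 235 under NBT, 163 under trametinib and 80 under both drugs. It was lowest in the library where SLC30A1 was highest, and any part of MTF1 in this was not tested. The log2 ratio of SLC39A10 was -0.92 (-1.16 to -0.69) after NBT. It fell after trametinib, at -1.41 (-1.69 to -1.15), and after both drugs, at -2.49 (-2.86 to -2.15). SLC39A7, which releases zinc from the endoplasmic reticulum, had 1594, 2378, 1657 and 3075 reads and log2 ratios of 0.53, 0.04 and 0.88.

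**Figure D5:**
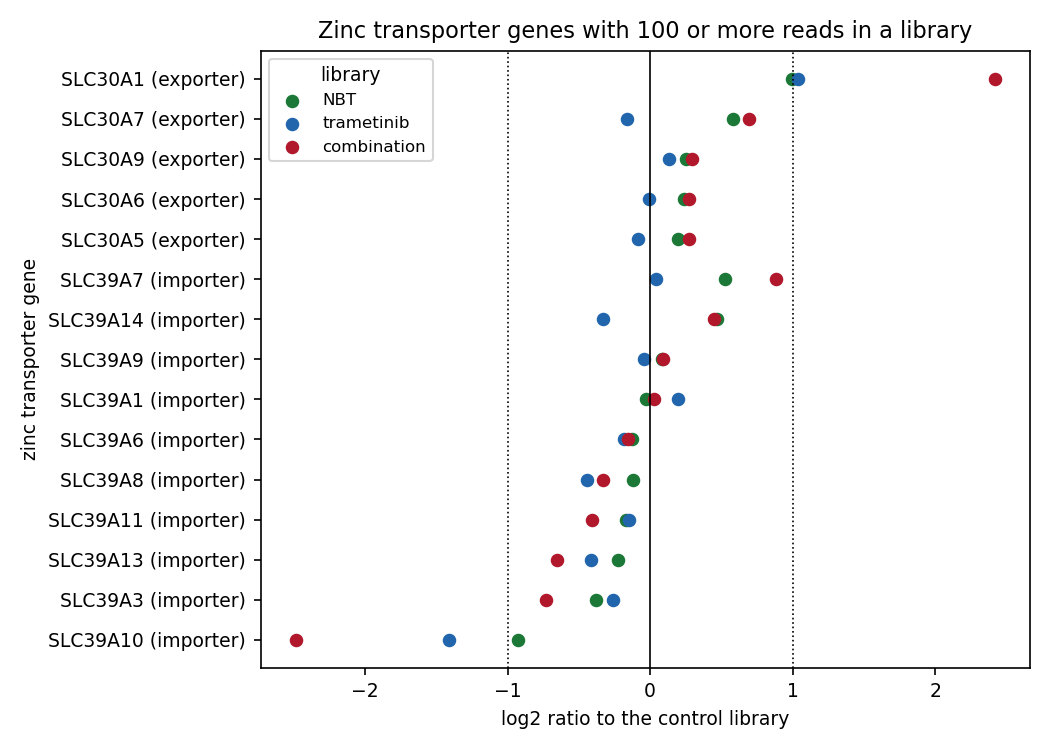
Log2 ratio to the control library for the 15 zinc transporter genes with 100 or more reads in a library, exporters above and importers below, 1 point per treated library and dotted lines at the log2 limits. SLC30A1 (2.42) and SLC39A10 (-2.49) are the outermost points and both belong to the combination.

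Of the 6 other metallothionein genes in the table, MT1B rose with the combination on 9, 9, 18 and 34 reads, a log2 ratio of 1.80 (0.76 to 3.10), and the others had at most 4 reads, so that the list medians of 0.19, -1.60 and -0.06 rest on very few reads. Among 15 genes of copper handling, a metal that metallothioneins also bind, STEAP4 passed the limits upwards with trametinib (19, 34, 46 and 40 reads) and STEAP3, a metalloreductase, fell with the combination (1795, 1227, 2016 and 928 reads, a log2 ratio of -1.01). Over all genes tested, 3.82% passed upwards and 2.15% downwards with trametinib, and 4.73% upwards and 3.69% downwards with the combination. The copper importer SLC31A1 stayed between 1281 and 1427 reads, and the medians of the copper list were 0.05, 0.36 and -0.07.

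Genes of metal, oxidative and heat stress were read beside the members, from a list chosen with earlier results known. Of 12 listed, 4 rose under NBT, 3 under trametinib and 8 under both drugs, and 0 fell. The list medians were 0.58, 0.30 and 1.79. Over all genes tested, 1.6%, 3.82% and 4.73% passed upwards in the same order. HSPA8, DNAJB1, HSPH1 and BAG3 stayed inside the limits against control throughout, and HSPA6 passed with the combination on 1, 7, 1 and 15 reads. HMOX1, the heme-degrading enzyme heme oxygenase 1, had 121, 4825, 382 and 44631 reads. GCLM, a subunit of the enzyme that starts glutathione synthesis, had 1245, 4658, 1730 and 7423 reads and rose with NBT and the combination. Both were highest in the combination, as SLC30A1 and MT1F were, and both were higher with NBT alone than with trametinib alone, which for MT1F was the other way round. HSPA1B, a heat shock chaperone, had 3273, 5472, 3961 and 12405 reads, and rose in the combination by 1.86 on the log2 scale. SLC7A11, the cystine importer, had 279, 2491, 739 and 5136 reads and rose in all 3 treated libraries. TXNRD1, thioredoxin reductase 1, had 3494, 8589, 4796 and 14462 reads and rose under NBT and under both drugs. HMOX1, GCLM, HSPA1B, SLC7A11 and TXNRD1 were each highest in the combination library. HSPA1A, whose near-identical copy HSPA1B can share its reads, had 2118, 3021, 2707 and 7103 reads and rose in the combination. HSPB1, a small heat shock protein, had 4946, 6471, 18316 and 16947 reads and rose in both libraries with trametinib. Of 8 glucocorticoid targets, TSC22D3 rose in every treated library (132, 409, 558 and 829 reads) and DUSP1 rose with the combination (270, 431, 192 and 848 reads), while FKBP5 had 393, 323, 386 and 310, and the list medians were -0.05, 0.10 and 0.32. The part of these pathways in the metallothionein values was not tested.

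The genes whose 3 log2 ratios to control lay nearest to those of a member, of 10662 genes with at least 100 reads in a library, were listed by Euclidean distance. Nearest to MT2A was NBPF15 (distance 0.0951), with 1738, 2504, 870 and 1585 reads, followed by PREX1, STK17A, SNAPC1 and PNP, at up to 0.230. Nearest to SLC30A1 were GADD45A (0.218), a stress-induced growth arrest gene, SQSTM1 (0.219), the autophagy receptor p62, and CREB5 (0.233). MT1F followed as the fourth, at 0.340, and ATP9A as the fifth. The 3 ratios share the control library, so a likeness of this kind is a description of 4 libraries only.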

How the data were processed

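RNA-seq was performed with 1 library for each of 4 conditions on the BGISEQ-500 platform. Per the labels the authors processed reads with Bowtie2 2.2.5 and RSEM 1.2.8 on hg38, and deposited estimated counts per gene and per transcript, not normalized, and TPM values scaled to length and to a fixed sum. For reads that match several genes RSEM divides them by expectation, and 53.9% of genes had a value that was not whole (tolerance 0.005 reads) in some library. Any filter of the authors is already in these values, and deposited FPKM columns were not used.

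Estimated counts were rounded and scaled to the library sum, and log2 ratios were taken with 0.5 reads added. Levels were compared between genes in TPM only. The counts of each pair of libraries were compared by a two-sided exact binomial test given their sum, with Benjamini-Hochberg adjustment across every gene that had 1 read or more in the pair. The limits, those of the study, were 0.05 for the adjusted value and 1 for the size of the log2 ratio. Since libraries and not conditions are compared, p-values were left out. Intervals are 95% Clopper-Pearson intervals of a ratio of 2 counts and cover counting error only, since each condition had 1 library. They take the rounded estimates as true counts and the reads as independent molecules, which PCR copies are not. The members and lists were chosen with earlier results of these data known. Named genes were the 8 members, list genes past the limits in a comparison with control with at least 30 reads in a library, and the 5 nearest profiles to MT2A and SLC30A1. SLC30A3, SLC30A7, SLC39A7, SLC31A1, FKBP5, MTAP, HSPA6, HSPA8, DNAJB1, HSPH1 and BAG3 were named after their values were seen. Paralog windows came from GENCODE v29 and promoters and positions from RefSeq on GRCh38.p14. Alternatives used edgeR 4.0.16 (TMM, or an exact test with an assumed coefficient of variation), DESeq2 1.42.0 size factors, and deposited TPM with 0.1 added. Python 3.11.15, scipy 1.17.1 and R 4.3.3 were used.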

Additional observations from a re-analysis of the deposited data

Results flagged for a closer look

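MT1X had fewer reads with NBT than without it in the absence of trametinib (log2 ratio -0.19) and more in its presence (0.53). The difference of 0.72 between these 2 ratios was listed because they have opposite signs. It rests on 1 library per condition and on the division of reads that MT1X shares with other genes, and it was not tested.

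MT1E had fewer reads with trametinib than without it in the absence of NBT (-0.27) and more in its presence (0.16). The difference of 0.43 was listed for the same reason and was not tested.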

How the results depend on the processing

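Of 392 recomputed log2 ratios of single members, covering 40 ratios, 344 kept their direction and their side of the limits, 23 lost a call, 23 gained one and 2 turned. Both turned ratios were of MTF1 with NBT against control, at 0.01, which was -0.0030 with DESeq2 size factors and -0.043 with TPM. Without a log2 limit the number of members past the limits was 5 for NBT, 6 for trametinib and 5 for both drugs against control. For the combination it was 6 against trametinib and 5 against NBT. Of all genes tested, 5635 of 15888, 6915 of 16197 and 8056 of 16229 passed against control, in the same order. For the combination, 7428 of 16343 passed against trametinib and 6079 of 16250 against NBT. With a log2 limit of 2, 0 members passed with trametinib against control and 0 for the combination against trametinib or against NBT. MT1F and SLC30A1 still passed with the combination against control. Of all genes, 352, 252, 251 and 401 passed in these comparisons, in the same order. Assuming that cultures vary with a coefficient of 0.2 left 0 members in those same 3 comparisons and 2 with the combination against control, and a coefficient of 0.4 left 0 in all of these. With TMM, DESeq2 or TPM scaling the trametinib count stayed at 2 but held MT1F and MT2A in place of MT1F and SLC30A1. The metallothionein sum in the combination against control was 0.04, and -0.0046 from TPM. In the combination against NBT the sum was -0.44, and 0.31 without MT2A. Its excess over the sum of the single ratios was 0.34, and 0.38 with TMM, 0.38 with DESeq2, 0.39 with TPM and 0.46 without MT2A. The values without MT2A depend on how reads were divided between MT2A and the other genes. No paired analysis was possible because each condition has 1 library, and none could be left out. At a minimum of 10 reads most ratios of MT1G and MT1M could not be given.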
